A study of Mus musculus with 6 samples.

Results

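The Id genes encode a family of 4 small helix-loop-helix proteins, and Id1, Id2, Id3 and Id4 were followed here in sorted osteoblastic cells of the mouse. The family was taken whole by gene name, so that the members are 4 of 19935 genes measured, each with 1 probe set that carried its symbol alone. Expression was read as log2 values on single-channel arrays from 4 wild-type (WT) samples and 2 samples of mice deficient in Y1, a receptor for neuropeptide Y (Y1KO). The cells of both groups came from cultured bone marrow stroma of the femora and tibias of male mice, kept for 7 days in control medium. In all samples a rat collagen type I promoter fragment of 3.6 kb drove green fluorescent protein (GFP), and the cells were sorted for it. The reporter marks cells that use this promoter, not a single cell type. The series' design text counts mice, but nothing says whether an array holds 1 animal or a pool, and the sources used here do not give strain, age or the way Y1 was removed. P-values therefore measure only how these arrays vary, part of which may be technical.

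Id proteins hold the helix-loop-helix domain through which transcription factors pair, but lack the basic region that touches DNA. They bind the E proteins, the common partners of tissue-specific basic helix-loop-helix (bHLH) factors, and so keep those factors off their sites. Id1, Id2 and Id3 are classic early targets of bone morphogenetic protein (BMP) signalling through SMAD proteins, and Id4 has been described as favouring the osteoblast over the adipocyte fate of marrow stromal cells.

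Id4 fell in Y1KO and was the only member of the family to pass the test. Of the 4 members, 1 fell and 0 rose, where 6.64% of all genes fell, 6.10% rose and 12.7% were called in either direction. On the WT arrays Id4 read 8.80, 8.96, 9.94 and 9.29 on the log2 scale for replicates 1 to 4, and on those of Y1KO 6.47 and 6.43. Every Y1KO array lay below every WT array, and the highest Y1KO and the lowest WT values were 2.33 apart. The WT mean was 9.25 ± 0.51 (SD, n = 4) and the Y1KO mean 6.45 ± 0.025 (SD, n = 2), which differ by -2.80 (SE 0.27, 95% interval -3.41 to -2.18), or 6.95-fold (limma adjusted p = 0.000787). By size of decrease, Id4 stood at rank 10 of the 19935 genes. Its mean level stood at percentile 60.7 of all genes in Y1KO, against 93.8 in WT. An exact two-sided permutation test over the 15 ways to divide the arrays gave p = 0.0667, the smallest that 4 against 2 arrays allow. Without moderation of the variance, that is with each gene's own spread alone, the adjusted p was 0.0619 and the call was lost.

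Id4 also varied among the WT arrays more than most genes. Its WT values spanned 1.14, with replicate 3 the highest, and its SD in WT was at percentile 98.8 of all genes. The Y1KO values were 0.035 apart. Without WT replicate 3 the difference was -2.57 (limma adjusted p = 0.000293), and without Y1KO replicate 1 or replicate 2 it was -2.82 and -2.78, with adjusted p of 0.0123 and 0.0203. With either Y1KO array left out, that arm holds 1 array, which is assumed to vary like the WT arrays. These 2 adjusted p-values therefore hold no spread from Y1KO. They rest on the spread among WT arrays, moderated by limma towards that of all genes. In a population of sorted cells, fewer cells that express Id4 and less Id4 RNA per cell cannot be told apart.

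Id2, which partners E proteins in many lineages, was 0.48 higher in Y1KO without passing the test. It read 7.22, 6.97, 7.52 and 7.49 in WT against 7.57 and 7.98 in Y1KO. Both Y1KO values lay above all WT arrays, but Y1KO replicate 1 exceeded the highest WT array by 0.048 only. The means were 7.30 ± 0.26 (SD, n = 4) and 7.78 ± 0.29 (SD, n = 2), with a 95% interval of the difference from 0.078 to 0.88 before adjustment (limma adjusted p = 0.127; exact permutation p = 0.133).

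Id1, the member most used as a readout of BMP signalling, did not differ between the genotypes beyond the spread of the arrays. It read 7.34, 7.31, 7.66 and 7.48 in WT and 7.37 and 7.78 in Y1KO. Y1KO replicate 1 lay within the WT range and replicate 2 above it. Y1KO exceeded WT by 0.13 (SE 0.14; limma adjusted p = 0.676; exact permutation p = 0.467), with a 95% interval from -0.19 to 0.45, and the sign turned to -0.077 without Y1KO replicate 2.

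Id3, whose protein overlaps with Id1 in function, was at nearly the same level in the 2 groups. It read 10.18, 9.93, 10.04 and 10.05 in WT and 9.87 and 10.10 in Y1KO, so that the ranges overlapped. Y1KO minus WT was -0.065 (SE 0.11; limma adjusted p = 0.798; exact permutation p = 0.6), with a 95% interval from -0.31 to 0.18, and without Y1KO replicate 1 it turned to 0.053. These intervals bound any change of Id1 and Id3 well below that of Id4, and do not show that their levels were equal.

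**Figure D1:**
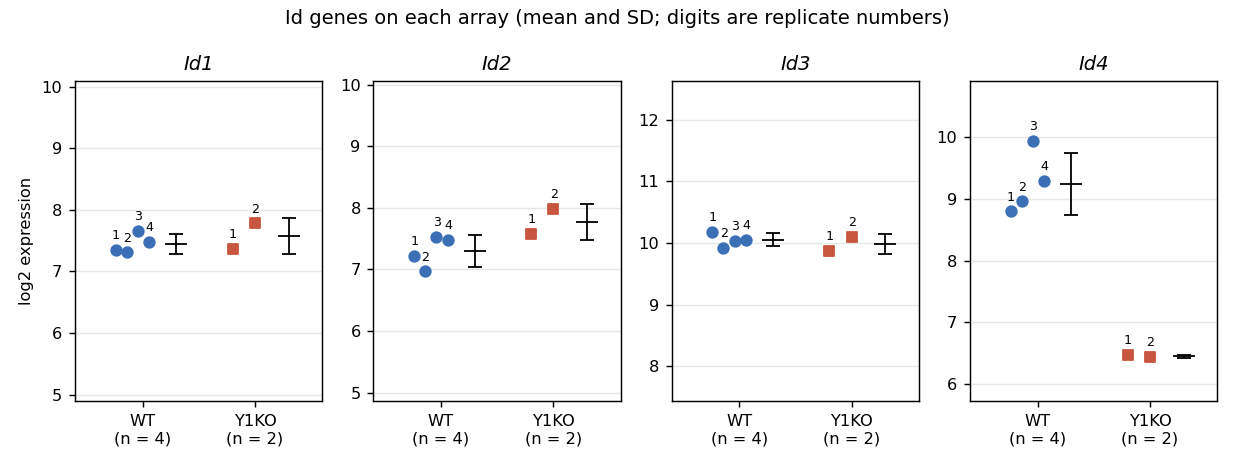
Log2 expression of Id1, Id2, Id3 and Id4 on each array, with 4 WT arrays (circles) and 2 Y1KO arrays (squares); digits give replicate numbers, bars beside the points are mean and SD, and all panels span the same number of log2 units. The Y1KO points of Id4, at 6.47 and 6.43, lie below all 4 WT points, while those of Id1 and Id3 overlap with WT.

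Of the calls over all genes 47.9% were higher in Y1KO, and 60.5% with arrays centred on their medians, a setting that left Id4 as the called member. The arrays of the groups did not overlap for Id2 and Id4, which is also true of 34.8% of all genes. Because levels of different probe sets cannot be set against each other, unequal change was tested on the difference between 2 members within each array. The change of Id1 minus that of Id4 was 2.93, that of Id2 minus Id4 was 3.28 and that of Id3 minus Id4 was 2.73, and in each of these pairs the Y1KO arrays lay beyond all WT arrays. The exact permutation p was 0.0667 for each, the smallest possible, and 0.1 after Benjamini-Hochberg adjustment over the 6 pairs, so this design cannot reach a threshold of 0.05. Among the other members, Id1 minus Id2 differed by -0.35 (exact p = 0.0667, adjusted 0.1), Id2 minus Id3 by 0.54 (exact p = 0.133, adjusted 0.16) and Id1 minus Id3 by 0.19 (exact p = 0.333, adjusted 0.333). No leave-one-out setting turned the sign of any of the 6 pairs.

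**Figure D2:**
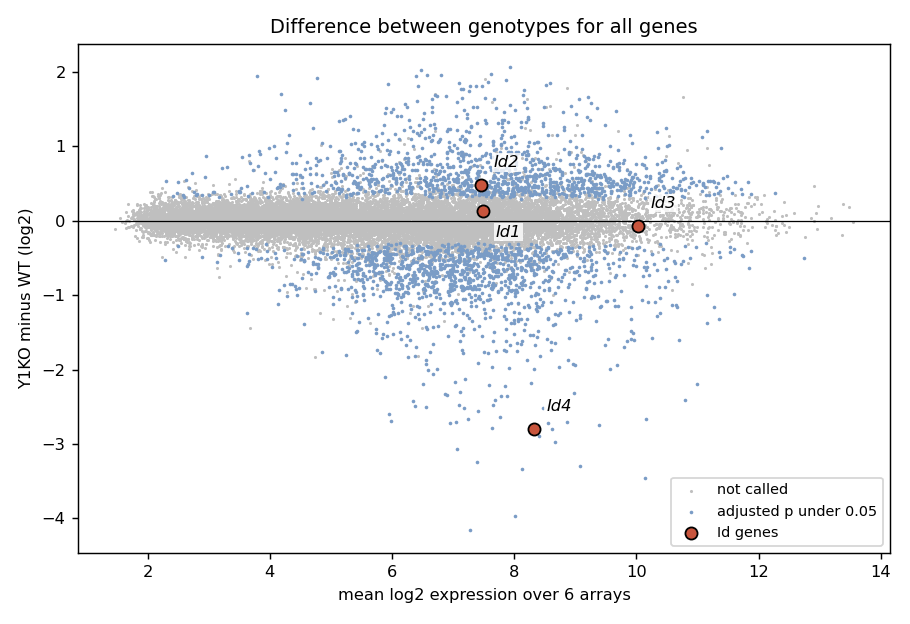
Difference between genotypes (Y1KO minus WT, log2) against the mean log2 expression over 6 arrays for all 19935 genes; blue points passed the limma test at an adjusted p under 0.05, grey points did not, and the Id genes are marked. Id4 lies at -2.80 among the lowest points of the plot, while Id1, Id2 and Id3 lie in or at the edge of the grey band.

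The sorted cells carried the markers of osteoblasts: all 8 of the measured markers lay above the median of all genes. Their mean log2 level was between 10.998 and 11.863 in WT and at 12.1 and 12.2 in Y1KO. Of the 8, 0 were called, but all were higher in Y1KO, by 0.18 to 1.66 with a median of 0.33. The arrays of the groups did not overlap for 7 of them, against 34.8% of all genes. Col1a1, whose promoter drives the reporter, stood at 13.42 ± 0.051 (SD, n = 4) and 13.60 ± 0.027 (SD, n = 2). Runx2, Bglap, Bglap2 and Spp1 were not analysed here, having no probe set under a single symbol. Npy1r, the gene of the Y1 receptor, read between 2.78 and 3.11 in WT and 2.89 and 2.83 in Y1KO, too dim to check the genotype labels. The array medians lay between 5.30 and 5.37, correlations over all genes were 0.991 to 0.996 within genotypes and 0.976 to 0.988 across them, and 0 pairs of arrays were identical.

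Markers of other cell types were counted in the same way, where 6.10% of all genes rose and 6.64% fell. Of 9 markers of marrow stromal progenitors, 6 fell and 1 rose, and the mean log2 level of the list was 8.18 to 8.83 in WT and 7.10 and 7.17 in Y1KO. Grem1 is in this list and in that of the BMP antagonists. For smooth muscle and pericytes 9 of 12 fell and 1 rose, with means of 8.72 to 9.03 in WT and 7.87 and 7.98 in Y1KO. For adipocytes 4 of 8 fell, with means of 6.30 to 6.73 in WT and 5.40 and 5.42 in Y1KO. The adipogenic regulators Pparg and Cebpa fell by 1.45 and 1.42 (limma adjusted p = 0.00229 and 0.00254). The lipase gene Lpl fell by 2.71 and Fabp4 by 1.87 (limma adjusted p = 0.000171 and 0.0057). Adipoq, the adiponectin gene of mature fat cells, did not pass (-0.93, adjusted p = 0.266). Nor did Plin1, Cidec and Lep, at -0.027, -0.021 and -0.13. The part of these cell types in the fall of Id4 was not tested.

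Of 12 macrophage and osteoclast markers, 5 rose and 0 fell, with a list median of 0.45. Lyz2, Adgre1, Cd68, Tyrobp and Csf1r rose by 0.97, 0.81, 0.69, 0.65 and 0.57. The other 7 did not pass, among them Ctsk at 0.49, Acp5 at 0.40, Fcer1g at -0.11 and Cd14 at -0.072. The mean level of the 12 was 5.84 to 6.08 in WT, 6.23 in Y1KO replicate 1 and 6.55 in Y1KO replicate 2, the array in which Id1 and Id2 were also at their highest. Their part in the values of Id1 and Id2 was not tested. Endothelial cells are rich in Id1 and Id3. Of their 10 markers, 2 lay above the median of all genes and 0 were called. The mean level of these markers was 4.56 to 4.76 in WT and 4.63 to 4.68 in Y1KO. The part of endothelial cells in the values of Id1 and Id3 was not tested. Of the 9 chondrocyte markers 1 rose and 2 fell, of the 9 lymphocyte markers 1 rose, and of the 6 erythroid and megakaryocyte markers 0 were called. All counts in this paragraph stand beside shares over all genes of 6.10% rising and 6.64% falling.

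The sequence just upstream of the gene start is shown for Id4, which fell, and for Id2 and Id3, which did not pass the test, because factors of the cAMP, SMAD and bHLH kinds act through short elements near gene starts. The 250 bases before the start are from RefSeq (GRCm38.p6, 3 of the 4 members matched), 5′ to 3′ in the direction of the gene, with matches to the searched motifs in capitals.

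Id4 (chr13:48260866-48261115, plus strand): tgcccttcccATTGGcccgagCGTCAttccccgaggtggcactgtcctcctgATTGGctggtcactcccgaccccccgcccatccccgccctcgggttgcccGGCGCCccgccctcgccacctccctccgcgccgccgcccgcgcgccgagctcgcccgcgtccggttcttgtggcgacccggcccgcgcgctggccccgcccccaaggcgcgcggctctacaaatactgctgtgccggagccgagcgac
Id3 (chr4:136143572-136143821, plus strand): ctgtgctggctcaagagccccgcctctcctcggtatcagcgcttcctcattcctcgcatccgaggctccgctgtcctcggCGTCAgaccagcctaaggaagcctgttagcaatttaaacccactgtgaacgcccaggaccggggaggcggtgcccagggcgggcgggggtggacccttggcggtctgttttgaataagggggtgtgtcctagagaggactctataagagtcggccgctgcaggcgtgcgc
Id2 (chr12:25096093-25096342, minus strand): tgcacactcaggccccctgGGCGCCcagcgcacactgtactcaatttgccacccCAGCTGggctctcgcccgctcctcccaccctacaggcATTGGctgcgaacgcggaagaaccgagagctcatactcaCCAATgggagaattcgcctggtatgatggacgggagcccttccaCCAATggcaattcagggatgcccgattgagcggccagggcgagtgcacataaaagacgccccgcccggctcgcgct

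The motifs, searched on both strands, were the E-box CANNTG bound by bHLH factors, the cAMP response element TGACGTCA and its shorter form TGACG, which is contained in it, the GC-rich element GGCGCC bound by SMAD proteins, and the CCAAT box. The Id4 window held TGACG at 229 bases upstream of the start, GGCGCC at 148 and CCAAT at 240 and 198, each counted to its first base. Id3 held TGACG at 170 bases upstream and none of the others. Id2 held GGCGCC at 231, an E-box at 196 and CCAAT at 159, 120 and 76 bases upstream. Among 32851 promoter windows of the same length, TGACG was found in 17.8%, TGACGTCA in 1.55%, GGCGCC in 9.59%, CCAAT in 33.8% and CANNTG in 66.2%. The Id4 window was 75.6% G and C, against 62.8% for both Id2 and Id3 and a median of 52.4%. A match is a description of the letters, and none of these elements separated Id4 from both other members.

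The E proteins, which every Id protein binds, were measured in full and 0 of 3 passed the test, where 12.7% of all genes did. Tcf3 (E2A) read 8.30, 8.22, 8.11 and 8.20 in WT and 8.13 and 8.11 in Y1KO, a difference of -0.085 (limma adjusted p = 0.656). Tcf4 (E2-2) was 0.38 higher in Y1KO (adjusted p = 0.1), with Y1KO arrays at 8.52 and 8.36 above WT arrays between 7.77 and 8.21. Tcf12 (HEB) had a difference of -0.27, at 8.57 ± 0.097 (SD, n = 2) against 8.83 ± 0.088 (SD, n = 4), without passing the test (limma adjusted p = 0.119). The groups did not overlap for Tcf4 and Tcf12, as for 34.8% of all genes.

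Of 27 measured genes for other helix-loop-helix factors and non-bHLH partners of Id proteins, 22 were not called, 3 rose and 2 fell. These counts are close to the shares over all genes, of which 6.10% rose and 6.64% fell. The list had a median difference of -0.014 beside 0.0071 for all genes. Atoh8, a bHLH factor, fell by 0.95, from 7.28, 7.30, 7.25 and 7.19 in WT to 6.24 and 6.38 in Y1KO (SE 0.089, limma adjusted p = 0.000716). Scx, the bHLH factor of tendon progenitors, went the other way and rose by 0.83, with Y1KO arrays at 8.24 and 8.26 above WT arrays between 7.15 and 7.62. Among the retinoblastoma family, whose proteins can bind Id2, Rbl1 fell by 0.71 and Rb1 rose by 0.44 (adjusted p = 0.00235 and 0.0154). Twist1, an inhibitor of osteoblast maturation that pairs with E proteins, was among the genes that did not pass, at -0.014. Without WT replicate 1 the list held 4 rising and 5 falling genes, and without Y1KO replicate 1 or 2 it held 1 and 0 rising and 2 and 2 falling genes, with Rb1 lost in both of these and Scx without Y1KO replicate 2. The third rising gene was Hes1, described with its family. Without moderation of the variance 0 genes rose and 2 fell.

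The bHLH repressors of the HES and HEY families, several of which act in the Notch pathway or can bind Id proteins, were listed with Bhlhe40 and Bhlhe41. Of the 12 genes 2 rose and 0 fell, with a median of 0.051, where 6.10% of all genes rose and 6.64% fell. Hes1, Hey1, Hey2, Heyl, Bhlhe40 and Bhlhe41 are also counted in the list of Id partners above. Hes1 rose by 0.45 (WT 9.15 ± 0.087, SD, n = 4; Y1KO 9.60 ± 0.098, SD, n = 2; limma adjusted p = 0.0166), and Hes6 rose by 0.42 (adjusted p = 0.0338). Hey1, a further BMP target, was 1.14 lower in Y1KO without passing the test (limma adjusted p = 0.119). Its WT arrays were widely spread, at 6.26, 5.94, 7.68 and 7.02, above Y1KO arrays at 5.42 and 5.75. Hes1 and Hes6 lost their calls without Y1KO replicate 1, without Y1KO replicate 2, without moderation and with the replicate block, and Hes6 also without WT replicate 2, 3 or 4. Without WT replicate 1 the list held 3 rising and 2 falling genes, and without WT replicate 2 it held 1 and 1.

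BMP ligands, the signals best known to induce Id genes, were split. Of 15 measured genes, 3 rose and 3 fell, with a median of 0.018, where 6.10% of all genes rose and 6.64% fell. The 15 include Bmp1, which encodes a protease and not a ligand, and which was not called (-0.043). Bmp4 fell by 1.00, from 8.61, 8.64, 8.74 and 8.68 in WT to 7.54 and 7.80 in Y1KO (SE 0.1, limma adjusted p = 0.000877), and Bmp5 fell by 0.84 (adjusted p = 0.00115). Bmp3, which dampens BMP signals in bone, rose by 1.47, from a WT range of 7.65 to 8.70 to 9.74 and 9.83 in Y1KO. Bmp8b rose by 1.17 (adjusted p = 0.00878). Bmp8a and Gdf6 complete the called ligands and were chosen after their values were seen, with differences of 1.26 and -0.90. Bmp2, an inducer of bone formation, was 0.64 higher without passing the test (adjusted p = 0.163). Without either Y1KO array or without moderation 0 ligands rose and 2 fell, the calls of Bmp4 and Bmp5 being kept.

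Most BMP receptors and SMAD genes did not pass the test, with 1 of 15 rising and 2 falling and a median of 0.048. These counts are near the shares over all genes, of which 6.10% rose and 6.64% fell. The type I receptor gene Bmpr1a, the type II receptor gene Bmpr2 and the mediators Smad1, Smad4 and Smad5 were among the 12 genes not called, at 0.12, 0.048, 0.11, -0.021 and 0.25. Smad9 rose by 0.55 (WT 6.52 ± 0.21, SD, n = 4; Y1KO 7.07 ± 0.067, SD, n = 2; limma adjusted p = 0.0279). Acvrl1, a receptor for BMP9, and its co-receptor Eng fell by 0.50 and 0.66 (adjusted p = 0.0211 and 0.0213). All 3 calls were lost without either Y1KO array and without moderation.

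Extracellular antagonists and intracellular inhibitors of the pathway fell more often than they rose, with 6 of 23 falling and 2 rising and a median of -0.099. The shares over all genes were 6.64% falling and 6.10% rising. Fst, which binds activins and BMPs, fell by 1.58, from 9.43, 9.58, 9.40 and 9.28 to 8.05 and 7.64, and the follistatin-like gene Fstl1 fell by 1.38 (WT 11.61 ± 0.095, SD, n = 4; Y1KO 10.23 ± 0.0087, SD, n = 2; limma adjusted p = 0.000376 and 0.000198). Ski, a corepressor of SMADs, fell by 0.65, and Tob1, an antiproliferative inhibitor of SMAD-dependent transcription, rose by 0.95 (adjusted p = 0.00622 and 0.0019). Further called members, chosen after seeing their values, were the BMP antagonist Grem1 at -1.65, the ubiquitin ligases Smurf1 and Smurf2 at -0.47 and -0.66, and the decoy receptor Bambi at 1.35. Smad6 and Smad7, inhibitory SMADs that BMP signals induce along with Id1, did not pass, at -0.49 (adjusted p = 0.0789) and -0.11 (0.536). Without Y1KO replicate 1 the list held 1 rising and 3 falling genes, without Y1KO replicate 2 it held 1 and 2, where Ski was lost, and without moderation 0 and 2.

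Of 10 osteoblast transcription factors known to respond to BMP, 2 rose and 1 fell, with a median of -0.19. For all genes the shares were 6.10% and 6.64%. Dlx3 rose by 1.27, from WT arrays at 7.53, 6.52, 7.76 and 7.72 to 8.58 and 8.72 in Y1KO (limma adjusted p = 0.0296), and the AP-1 gene Junb rose by 0.57 (adjusted p = 0.0128). Atoh8, described above among bHLH factors, was the member that fell. Msx1, Msx2, Dlx5 and Sp7 were among those that did not pass, at -0.15, 0.10, -0.36 and 0.43. Dlx3 was lost without either Y1KO array, with trend and robust options and without moderation. Junb was lost without Y1KO replicate 1 and without moderation. Without WT replicate 2 the list held 2 rising and 3 falling genes.

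**Figure D3:**
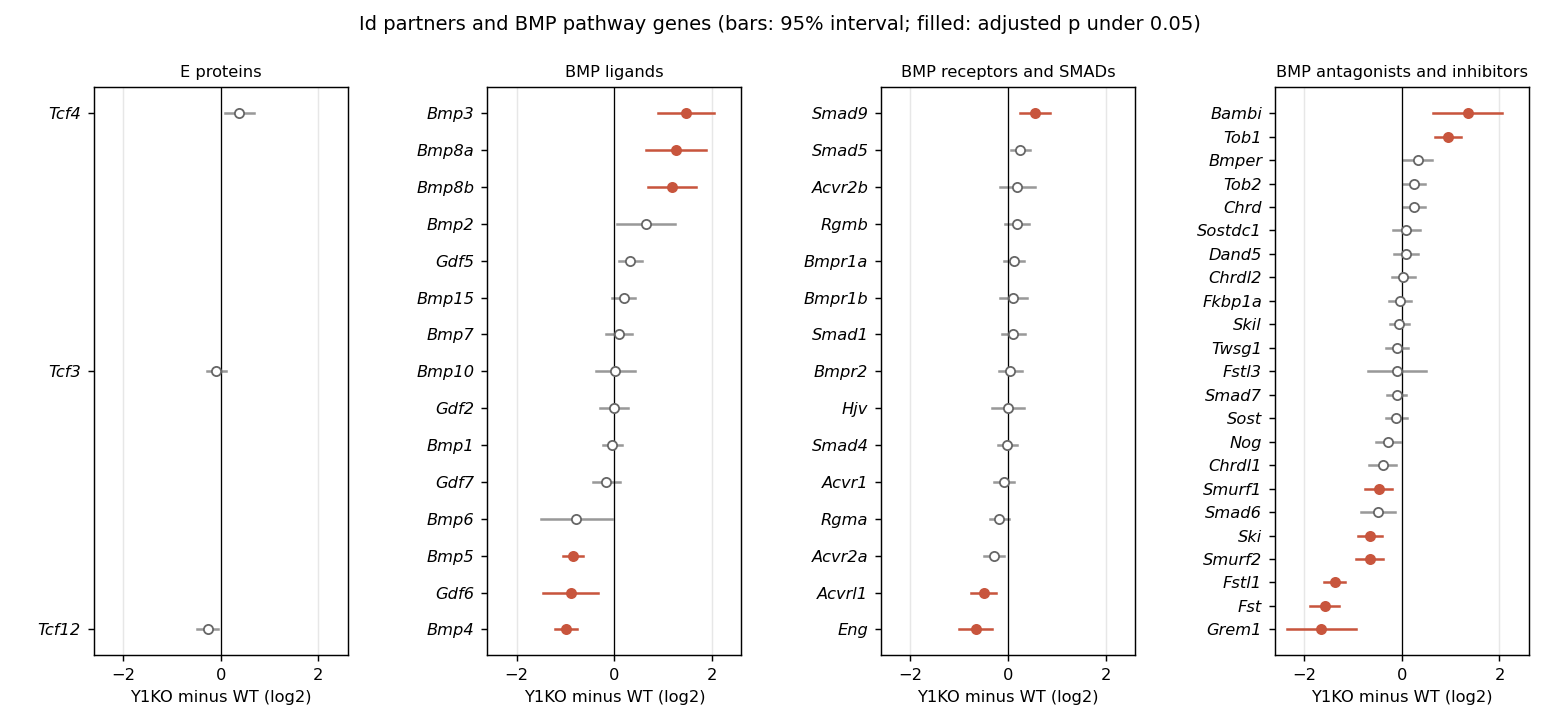
Difference between genotypes (Y1KO minus WT, log2) for the E proteins and for BMP ligands, receptors with SMADs, and antagonists, with bars for the 95% interval before adjustment and filled points for a limma adjusted p under 0.05. None of the 3 E proteins is filled, while ligands split into 3 higher and 3 lower genes and antagonists into 2 higher and 6 lower genes. The panel of ligands also shows Bmp1, which encodes a protease. Over all genes 6.10% were called higher and 6.64% lower.

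Inhibitors of cyclin-dependent kinases, several of which are activated by E proteins and held down by Id proteins, gave 0 calls among 6 measured genes. Their median was -0.21, and 12.7% of all genes were called. Cdkn1a, also an inhibitor of this list, was not analysed here, having no probe set under a single symbol. Cdkn2c and Cdkn2d, inhibitors of the G1 kinases, came nearest, at -0.53 and -0.29 (limma adjusted p = 0.0572 and 0.0576). The count was 2 with either filter on dim genes or with array weights, and 1 with trend and robust options or without WT replicate 2 or 3. Cell cycle genes, with which Id expression often goes along in dividing cells, fell in 23 of 23 cases, with a median of -0.86. Of all genes 6.64% fell. Mcm4, a subunit of the replicative helicase, fell by 1.22, from 8.34, 8.45, 8.48 and 8.34 to 7.26 and 7.10. Mcm6, Top2a and Cdc6 fell by 1.22, 1.22 and 0.99 (limma adjusted p = 0.000435, 0.000845 and 0.00042). The falling cell cycle genes numbered 14 without Y1KO replicate 2 and 10 without moderation, and whether they have a part in the fall of Id4 was not tested.

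The genes whose values over the 6 arrays ran closest to each Id gene were found by the root mean square (RMS) distance between gene-centred log2 values, among 9966 other genes above the median of expression. For Id4 they were Rspo3, an enhancer of Wnt signalling (distance 0.16), Igfbp5, a binding protein of insulin-like growth factors (0.19), and Itga9, an integrin subunit (0.22), where the median candidate was 1.37 away. Because they were chosen for their likeness to Id4 over these same arrays, a fall of like size and a like order of the WT arrays follow from the choice and are given as a description. Rspo3 fell by 2.56, Igfbp5 by 2.71 and Itga9 by 2.78, and all 3 had their highest WT value in replicate 3. Rspo3 read 7.77, 8.13, 8.76 and 8.35 in WT and 5.76 and 5.64 in Y1KO. Rspo3 and Igfbp5, like Id4, lost their calls without moderation, and Itga9 did not.

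Id2 ran closest to Ormdl3, a regulator of sphingolipid synthesis, to Mef2a, a transcription factor, and to the scaffold gene Slc9a3r2, at distances of 0.064, 0.076 and 0.085 (median 0.35). Also chosen for likeness, these 3 genes had differences of 0.57, 0.57 and 0.46 (limma adjusted p = 0.0401, 0.0377 and 0.0476) where Id2 had 0.48 (0.127). Their calls were lost without WT replicate 1, without either Y1KO array and without moderation. Ormdl3 and Mef2a also lost the call with quantile normalization, Ormdl3 and Slc9a3r2 with all probe sets as units and without WT replicate 2, and Slc9a3r2 without WT replicate 3 or 4. Id1 ran closest to Rnf166, Ppp2cb and the predicted gene Gm24463 (0.054, 0.057 and 0.065, median 0.24), and Id3 to Zfp1, Nr1d2 and the histone gene H3c4 (0.036, 0.040 and 0.043, median 0.18), with no difference called for any of these 6. H3c4 belongs to a family of near-identical histone genes, so its probe set is uncertain, and for genes that hardly vary a small distance says little.

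**Figure D4:**
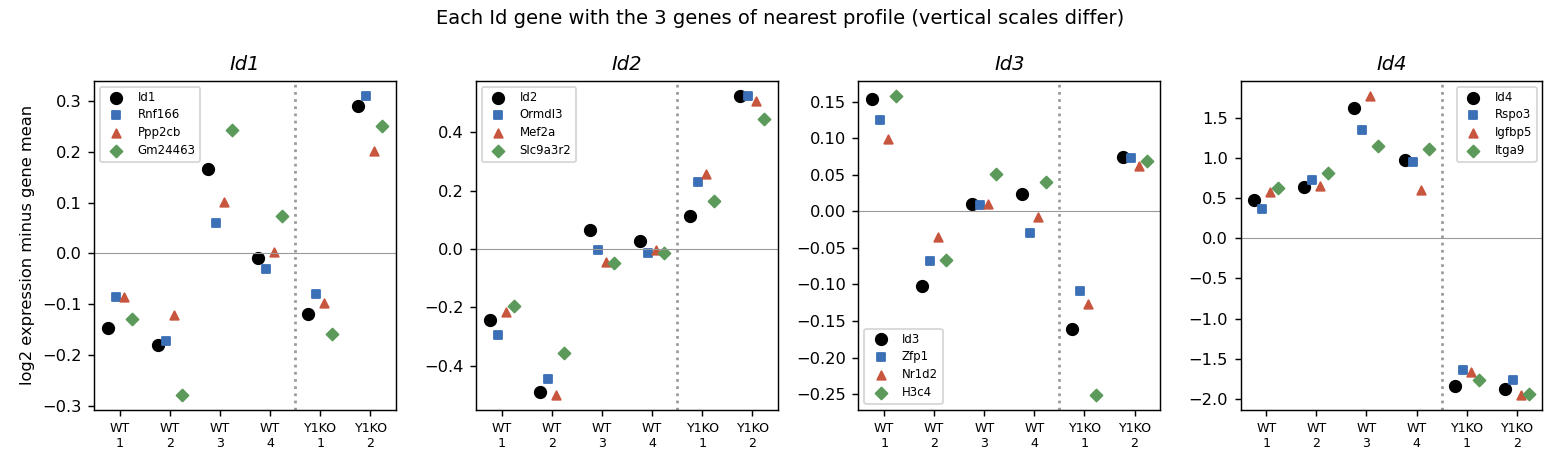
Log2 expression minus the gene's mean on each of the 6 arrays for each Id gene (black circles) and the 3 genes at the smallest RMS distance from it (coloured symbols), with vertical scales that differ between panels. In the Id4 panel all 4 genes lie above 0 on every WT array, highest in WT replicate 3, and below 0 on both Y1KO arrays, whereas the Id1 and Id3 panels show spread within each genotype.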

How the data were processed

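The deposited table holds log2 expression values of 28815 probe sets on 6 arrays; the submitters' processing notes list RMA and limma without versions or settings, and the sources used here name no genome build. No further normalization was applied. Probe sets were named from the repository's platform annotation, of which 21780 carried 1 symbol, 1605 several and 5430 none; only the first were used. The probe set of highest mean stood for a gene, leaving 19935 genes, of which 19853 matched the RefSeq table of GRCm38.p6. Y1KO was compared with WT by limma 3.58.1 (R 4.3.3, lmFit and eBayes, genotype only, two-sided), with Benjamini-Hochberg adjustment over all genes and calls at an adjusted p under 0.05. Fell and rose refer to called genes. An array has no read depth; the number of arrays limits precision. The script was tested on simulated data.

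The members and gene lists were chosen with earlier results of these data known, so list counts are descriptions. The shares over all genes include dim genes. With the filter at the 60th percentile 1157 genes were still called higher and 1164 lower, so shares among brighter genes were larger. In WT, 12 of 15 BMP receptors and SMADs and 18 of 23 antagonists and inhibitors lay above the median of all genes. Named genes were the Id genes, the E proteins, up to 4 called members of smallest p per list, the 3 nearest profiles per Id gene, Npy1r and Col1a1. Other genes in the text, such as Pparg, Cebpa, Lpl, Fabp4 and Hey1, lie outside this rule. Their own results under the alternatives are not given. Alternatives were quantile normalization, median centring, a filter on dim genes (40th or 60th percentile), the mean of probe sets, all probe sets as units, trend and robust options, no moderation, array weights, a replicate block and each array left out.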

Additional observations from a re-analysis of the deposited data

Results flagged for a closer look

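Among the 44 named genes, each tested over its 4 WT arrays, 1 had an array that stood apart by Dixon's criterion, and chance alone marks about 1 in 20. It was Igfbp5, the gene second nearest to Id4 in profile, whose WT replicate 3 read 10.33 against 9.14, 9.21 and 9.15 in the others, a gap of 0.944 of the range. Without WT replicate 3 its difference between genotypes was -2.42 in place of -2.71.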

How the results depend on the processing

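Over 16 alternatives Id4 kept its direction, with differences from -2.95 to -2.43, and was called in 15; without moderation its difference of -2.80 had an adjusted p of 0.0619. Id2 was positive in all 16 and called in 1, the replicate block, at 0.68 (limma adjusted p = 0.0464). WT replicates 3 and 4 have no Y1KO array of the same number, so the block takes them up. Its differences, among them the -2.43 of Id4, thus rest on WT replicates 1 and 2 against Y1KO. Leaving out 1 array gave -0.077 to 0.33 for Id1 and -0.18 to 0.053 for Id3. Numbers shared by WT and Y1KO replicates do not pair them by any label, and the deviations of same-numbered arrays correlated at 0.013 and -0.20; the block gave 2181 calls in place of 2541, and 0 for the HES and HEY list. Calls over all genes were 344 without moderation and 487 to 2462 with 1 array left out (944 without Y1KO replicate 1, 487 without Y1KO replicate 2). With median-centred arrays 60.5% of calls were higher in Y1KO, against 47.9%.

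Without moderation the called members were 2 of the Id partner list, 2 BMP ligands, 0 receptors and SMADs, 2 antagonists, 1 BMP-responsive factor, 0 HES and HEY genes and 10 cell cycle genes. With 1 array left out these counts ran from 2 to 9, 2 to 6, 0 to 3, 3 to 9, 1 to 5, 0 to 5 and 14 to 23. The kinase inhibitors, with 0 calls, had 2 with the filter at the 40th or 60th percentile and with array weights, 1 with trend and robust options, and 0 to 1 with an array left out. Calls lost among 30 named genes were 19 without moderation, 13 with Y1KO replicate 1 left out and 14 with Y1KO replicate 2 left out. Signs turned only for uncalled genes: Zfp1 was 0.046 with quantile normalization and 0.033 with median centring, and Nr1d2 0.011 with median centring. With 1 array left out the ranges were -0.12 to 0.065 for Zfp1, -0.14 to 0.046 for Nr1d2, -0.30 to 0.023 for H3c4, -0.14 to 0.27 for Gm24463, -0.022 to 0.37 for Rnf166 and -0.073 to 0.23 for Ppp2cb. The cause of these changes was not tested.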

Other observations

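WT replicate 3, the array with the highest Id4 value, was also the highest WT array for 489 of the 1324 genes that fell in Y1KO (36.9%), against 21.6% of all genes, and WT replicate 2 for 618 (46.7%), against 27.7%. WT replicates 1 and 4 held the highest value of 9.82% and 6.57% of the fallen genes, against 23.0% and 27.6% of all genes. The fallen genes were thus most often highest in replicates 2 and 3, while Id4 in replicate 2 read 8.96, below the WT mean of 9.25. Hey1, which did not pass the test, was among the 21.6% of all genes that were highest in WT replicate 3, at 7.68.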
